A study of Drosophila melanogaster with 30 samples.

Results

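Neurons of the Drosophila larval brain were profiled for trimethylation of histone H3 at lysine 4 (H3K4me3) and at lysine 27 (H3K27me3). The 4 neuron libraries that immunoprecipitated a mark, 2 for H3K4me3 and 2 for H3K27me3, were taken from a series of 30 samples, of which 16 came with a table of counts. Each table gives reads for the same 14284 genes, and every gene was placed by its level of each mark. The neurons came from brains of wandering third-instar larvae. They were separated by the same published dissociation and sorting protocol as the neuroblasts of the series, and their chromatin was cut with micrococcal nuclease. Genotype, driver, sex, sorting marker and number of animals of the neurons are not given in the sources used here, nor whether the 2 libraries of a mark came from separate sorts. The spread between them may therefore be biological, technical or both. Over pooled neurons a level cannot tell more marked cells from more mark per cell. The other cell groups of the series enter none of the values given here.

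H3K4me3 is laid down by the COMPASS family of methyltransferases around the start of genes that are being transcribed. H3K27me3 is laid down by Polycomb repressive complex 2, whose catalytic subunit in the fly is E(z), and it covers whole genes and often whole domains of genes that are kept silent, the Hox genes being the classical case. A gene can also lack both, and a sample made of several kinds of neuron can show both at a gene that is active in some cells and silent in others.

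H3K4me3 was counted in the 501 bases that begin at the outer start of each gene and is given as counts per 1000000 reads of the library (CPM). H3K27me3 was counted over the whole gene model and is given as CPM per kb of gene model. The H3K4me3 libraries held 9391818 reads in replicate 1 and 5407777 in replicate 2, and the H3K27me3 libraries held 16702071 and 25009648. A gene was said to carry H3K4me3 when it reached the even share of its library in both replicates, 70.01 CPM, which is the value every gene would have if reads were spread evenly over genes. It was said to carry H3K27me3 when it reached 2 times the even density over gene models in both replicates, 22.4 CPM per kb. A gene below the level in both replicates lacks the mark, and a gene past it in 1 of 2 is called split. At the H3K4me3 level a gene has 658 reads in replicate 1 and 379 in replicate 2. At the H3K27me3 level a gene of median length (2029 bases) has 758 and 1134 reads. Shorter gene models reach that level with fewer reads. The part of counting error in the differences between replicates described below was not tested. Values are given for replicate 1 first and replicate 2 second throughout.

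The neuronal label was set against marker genes. Of 6 neuronal markers, 3 carried H3K4me3, as 31.9% of all genes did. The RNA-binding protein gene elav, the standard neuronal marker, had 299.5 and 236 CPM. The synaptobrevin gene n-syb had 154 and 139.8 CPM and the synaptotagmin gene Syt1 114 and 102 CPM. The active-zone scaffold gene brp was split, at 15.97 and 79.3 CPM, and the RNA-binding protein genes Rbp9 and fne lay below the level, at 4.26 and 17.8 and at 5.86 and 22.01 CPM at their outer starts. None of the 6 neuronal markers reached the H3K27me3 level in either replicate. Few genes did, 6.36% of all genes in replicate 1 and 2.93% in replicate 2, so this count says little about the label.

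Markers of other cells of the brain carried little H3K4me3 at the same windows. None of the 6 neuroblast markers, of the 6 glial markers, of the 6 hemocyte and fat body markers or of the 6 muscle markers carried H3K4me3, and 1 of these 24, the muscle factor gene Mef2, was split. The highest of the neuroblast markers was ase at 45.9 and 65.1 CPM, while dpn had 19.6 and 27.2, wor 18.7 and 31.1, insc 27.7 and 45.3, mira 15.8 and 28.8 and grh 2.98 and 14.4 CPM. Summed over their 6 genes, H3K4me3 was 593 and 597 CPM for the neuronal markers and 131 and 212 CPM for the neuroblast markers. The same sums were 39.2 and 96.5 CPM for glia, 27.04 and 73.4 CPM for hemocytes and fat body and 64.95 and 168 CPM for muscle. No marker was at 0 reads in any of the 4 libraries. Past the H3K27me3 level in replicate 1 were 1 neuroblast, 2 glial, 2 hemocyte and fat body and 1 muscle marker, of 6 each. In the H3K27me3 libraries the glial fate genes repo and gcm stood at 33.9 and 13.3 and at 113 and 29.6 CPM per kb, and the other 4 glial markers moody, nrv2, wrapper and alrm at or below 11.4 CPM per kb in replicate 2.

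Of the 14284 genes, 4412 (30.9%) carried H3K4me3 and lacked H3K27me3. A further 273 (1.91%) carried H3K27me3 and lacked H3K4me3. Both marks were carried by 92 genes (0.644%), of which 88 lie in the repeated histone gene cluster. Neither mark was carried by 8084 genes (56.6%), and 1423 (9.96%) were split for at least 1 mark. The neither group includes 98 genes of the unplaced sequence U and of the mitochondrion that have no read in any of the 4 libraries and were not measured. The H3K4me3 group had median levels of 164 and 146 CPM, against 5.22 and 15.5 CPM in the neither group. The H3K27me3 group had a median of 89.9 CPM per kb in replicate 1 but of 27.5 in replicate 2, against 8.26 and 10.4 in the neither group. The step from unmarked to marked genes was larger in replicate 1 than in replicate 2. Read from H3K27me3 replicate 1 alone, 775 genes had H3K27me3 and lacked H3K4me3, and from replicate 2 alone 285.

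**Figure D1:**
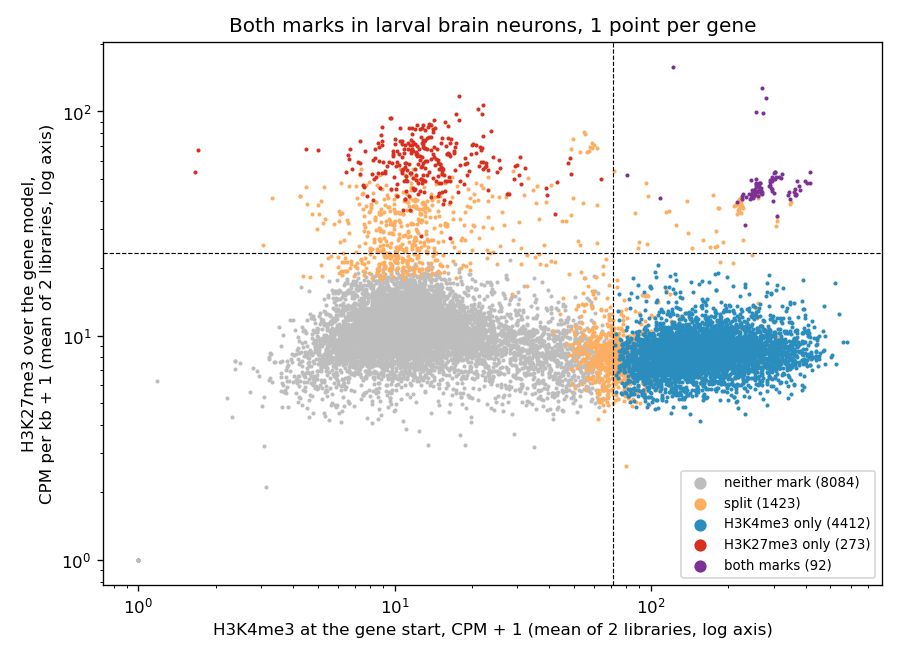
Mean H3K4me3 at the gene start (CPM + 1, log axis) against mean H3K27me3 over the gene model (CPM per kb + 1, log axis) of the 2 libraries per mark, 1 point per gene, coloured by class, with dashed lines at the levels. The upper right corner, with both marks high, holds mainly a compact group of histone genes. The 273 genes with H3K27me3 alone lie apart from the 4412 with H3K4me3 alone by definition, since the levels cut the same axes.

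Neither level falls in a gap of the data. The 3 genes just inside the H3K4me3 level were CG9804 at 70.1 and 73.6 CPM and the pair CG42375 and CG9288, which share 1 window, at 70.1 and 133 CPM. Just outside were the receptor gene mth at 69.95 and 83.95, the mitochondrial ribosomal protein gene mRpS24 at 69.95 and 108 and CG4951 at 69.95 and 85.2 CPM, values that round to the level in replicate 1. The 3 just inside the H3K27me3 level were CG13323 at 65.6 and 22.4, the bZIP factor gene cnc at 65.5 and 22.4 and the midline factor gene sim at 72.9 and 22.4 CPM per kb. Just outside were the head homeobox gene oc at 78.1 and 22.3, the rhodopsin gene Rh5 at 53.1 and 22.3 and CYLD at 55.4 and 22.3 CPM per kb. All 6 of these lie 2 to 4 times the level in replicate 1, so it was replicate 2 that placed them on one side or the other.

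H3K4me3 without H3K27me3 was found at most ribosomal protein genes, which every cell uses. Of 93 ribosomal protein genes, 83 fell in this group (89.2%, against 30.9% of all genes). Those 83 ranged from 80.3 to 555 CPM in replicate 1 and from 75.1 to 377 CPM in replicate 2. The 8 that lacked both marks bear the names of paralogs: RpL10Aa, RpL22-like, RpL37b, RpS10a, RpS15Ab, RpS19b, RpS28-like and RpS5b. Such names did not set them apart, since RpL24-like, RpL7-like, RpL10Ab, RpS10b, RpS14a and RpS14b, among others, carried H3K4me3 alone. The 8 without marks ranged from 2.34 to 30.03 CPM in replicate 1 and from 7.77 to 53.3 CPM in replicate 2, so all lay under the level.

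The proteasome divided more closely by name. Of 31 genes named as its subunits, 19 carried H3K4me3 alone (61.3%, against 30.9% of all genes). Highest was Rpt1, a base ATPase, at 327 and 212 CPM. The 11 paralogs whose names end in R or T, many of them known as testis copies, all lacked H3K4me3, at 2.66 to 11.9 CPM in replicate 1 and 9.62 to 49.7 CPM in replicate 2. Of the 20 other subunits 1 missed the level, Prosalpha1 at 69.3 and 51.6 CPM. Among the paralogs Rpn12R stood apart, with 104 and 29.9 CPM per kb of H3K27me3, whereas the canonical Rpn12 had 5.07 and 7.73 CPM per kb of H3K27me3 and 165 and 123 CPM of H3K4me3.

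The genes that encode the Polycomb and Trithorax machinery were themselves mostly marked by H3K4me3. Of 35 members, 25 carried it alone (71.4%, against 30.9% of all genes). Split were 6 (17.1%, against 9.96%), and 4 carried neither mark (11.4%, against 56.6%). The median of the list was 234 and 188 CPM, against 8.52 and 25.7 over all genes. The O-GlcNAc transferase gene sxc had 551 and 213 CPM, the BTB factor gene psq 327 and 342 CPM and the chromatin remodeller gene kis 379 and 292 CPM. The H3K27 methyltransferase gene E(z) had 116 and 90.1 CPM, and Pc, whose protein binds H3K27me3, had 335 and 247 CPM. Highest for H3K27me3 in replicate 1 were the neighbours Su(z)2, at 71.9 and 22.5 CPM per kb, and Psc, at 35.9 and 14.9997 CPM per kb, which encode related subunits of Polycomb repressive complex 1. Su(z)2 had 63.2 and 126 CPM of H3K4me3 and was split for that mark, and Psc lacked it, at 43.2 and 58.6 CPM. The gene Trl, which encodes the GAGA factor, lay below the level at 8.52 and 44.9 CPM at its outer start.

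Named by rank among genes whose windows overlap no other gene, the 6 highest with H3K4me3 alone were dock, Sod, E(Pc), CG4022, BtbVII and rno. The adaptor gene dock, which acts in axon guidance, had 653 and 501 CPM of H3K4me3 and 6.59 and 10.1 CPM per kb of H3K27me3. The superoxide dismutase gene Sod had 621 and 453 CPM and E(Pc), an enhancer of Polycomb phenotypes, 594 and 445 CPM of H3K4me3. CG4022, BtbVII and rno had 491 and 445, 609 and 443 and 562 and 440.5 CPM. In each of the 6, replicate 2 was lower than replicate 1. Their H3K27me3 was 10.4 and 12.6 CPM per kb at Sod, 19.98 and 12.4 at E(Pc), 4.66 and 10.4 at CG4022, 4.28 and 8.74 at BtbVII and 4.45 and 9.63 at rno, so that E(Pc) came within reach of the H3K27me3 level in replicate 1 and not in replicate 2.

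Most genes of synaptic function carried H3K4me3 alone, and most genes of neurotransmitter synthesis and transport carried neither mark. Of 30 genes of synaptic function, 19 carried H3K4me3 alone (63.3%, against 30.9% of all genes), 6 were split and 5 carried neither. The clathrin adaptor gene lap had 396 and 315 CPM, the synaptojanin gene synj 316 and 293 CPM, the dynamin gene shi 317 and 258 CPM and the vesicle chaperone gene Csp 285 and 245 CPM. No gene of the list reached the H3K27me3 level in either replicate, the highest being the amyloid precursor homolog Appl at 22.02 and 12.7 CPM per kb. Of 20 genes of neurotransmitter synthesis and transport, 16 carried neither mark (80%, against 56.6% of all genes) and 1 carried H3K4me3, the vesicular GABA transporter gene VGAT at 122 and 118 CPM. The acetylcholine genes Cha and VAChT, which share a locus, lay under the level at 59.1 and 56.03 and at 55.5 and 56.8 CPM. The glutamate decarboxylase gene Gad1 had 5.75 and 20.9 CPM of H3K4me3 and 60.8 and 20.7 CPM per kb of H3K27me3. The histidine decarboxylase gene Hdc, at 35.96 and 14.4 CPM per kb, and the vesicular glutamate transporter gene VGlut, at 31.2 and 14.1 CPM per kb, were likewise past the H3K27me3 level in replicate 1 and not in replicate 2.

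**Figure D2:**
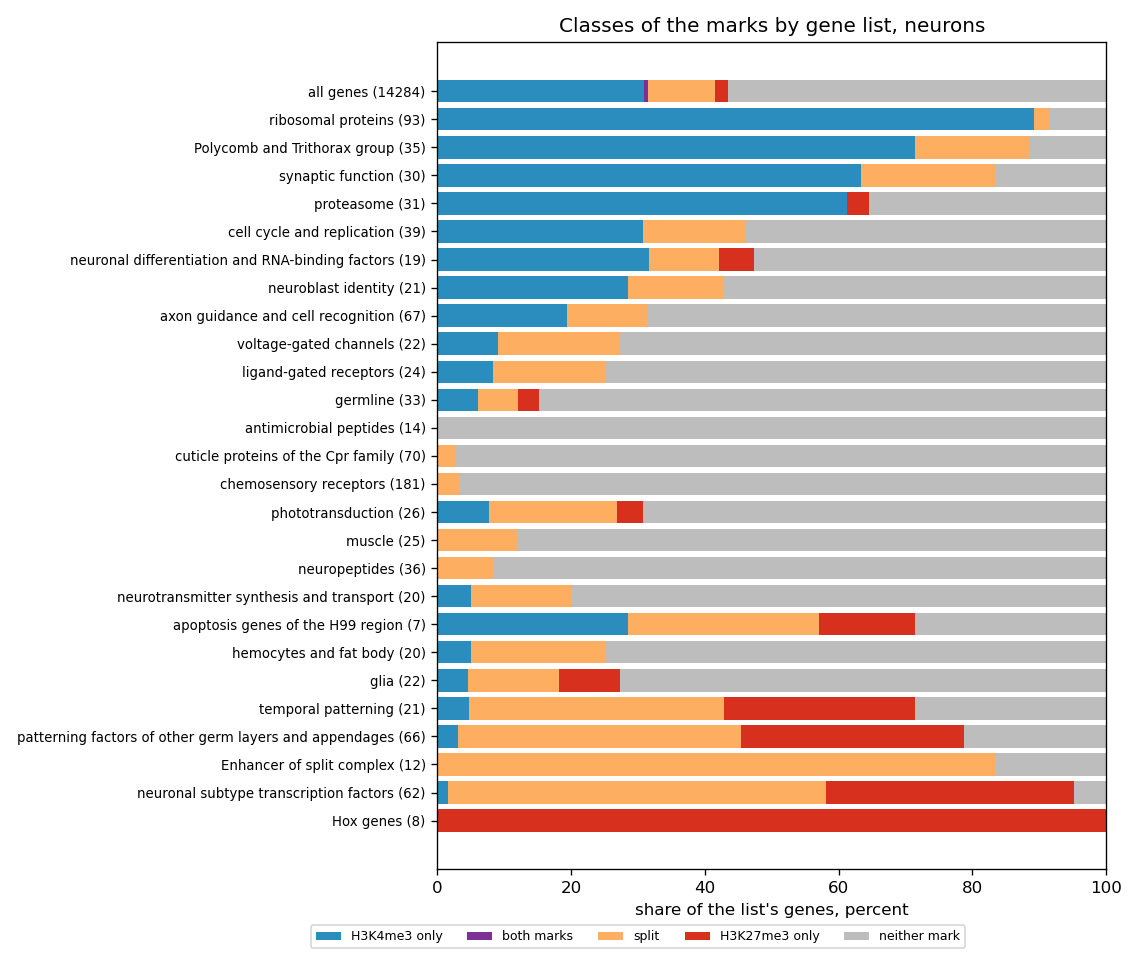
Share of the genes of each list in each class (percent), with the number of genes in brackets and all 14284 genes at the top. Ribosomal protein genes (89.2%) and Polycomb and Trithorax group genes (71.4%) lead for H3K4me3 alone, and the 8 Hox genes are the list whose members all carry H3K27me3 alone.

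Genes of neuronal differentiation were near the shares of all genes. Of 19, 6 (31.6%, against 30.9% of all genes) carried H3K4me3 alone and 10 (52.6%, against 56.6%) carried neither. Beside elav, those with H3K4me3 were the RNA-binding protein gene cpo at 193 and 236, the homeobox gene onecut at 361 and 150.2, the Snail family gene scrt at 132 and 129.6, the BTB factor gene lola at 108 and 110.2 and the zinc finger gene nerfin-1, which keeps neurons from reverting to neuroblasts, at 113 and 80.6 CPM. The zinc finger gene Lin29 carried H3K27me3 alone, at 86.9 and 27.6 CPM per kb, and the factor gene ham was past that level in replicate 1 alone, at 29.04 and 13.4 CPM per kb. The gene pros, whose factor drives the exit from the neuroblast state, carried neither mark at its outer start, with 10.1 and 2.77 CPM of H3K4me3 and 16.8 and 12.3 CPM per kb of H3K27me3.

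Receptors, channels, recognition molecules and neuropeptides mostly carried neither mark where they were measured. That was so for 18 of 24 ligand-gated receptor genes, 16 of 22 voltage-gated channel genes, 46 of 67 axon guidance and recognition genes and 33 of 36 neuropeptide genes, against 56.6% of all genes. The sodium channel gene para had 3.19 and 9.06 CPM and the calcium channel gene cac 2.02 and 9.06 CPM, while the potassium channel gene Shal had 143 and 192 CPM. The guidance receptor genes robo and fra carried H3K4me3, at 360.4 and 283 and at 295 and 217 CPM. The semaphorin receptor gene plexB had 475 and 106 CPM and its relative plexA 419.9 and 19.8 CPM, both on chromosome 4. No neuropeptide gene reached the H3K4me3 level in either library. The highest for H3K27me3, Nplp1, Ptth and pburs, had 33.4 and 17.8, 23.5 and 14.7 and 25.7 and 12.3 CPM per kb.

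A low H3K4me3 value holds for the window that was counted and not for every start of a gene. Genes were counted at 1 outer start each, and long genes often have several starts. Of the 966 genes with a gene model over 20 kb, 24.02% carried H3K4me3, against 41.5% of the 3863 genes of 2 to 5 kb. The share was 39.4% at 5 to 20 kb, 30.5% at 1 to 2 kb and 18.3% under 1 kb. Median gene model length was 38067 bases in the channel list and 33318 in the axon guidance list. The synaptic list, with its many marked genes, also had long gene models, at a median of 23926 bases. The part of length in these counts was not tested.

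H3K27me3 without H3K4me3 was found at every Hox gene, the homeobox genes that set identity along the body axis. All 8 belonged to this group, which holds 1.91% of all genes. Their densities ran from 85.4 to 118 CPM per kb in replicate 1 and from 25.9 to 32.6 CPM per kb in replicate 2. Of the Antennapedia complex, lab had 85.4 and 25.9, pb 87.3 and 26.9, Dfd 116 and 31.5, Scr 97.6 and 29.6 and Antp 109 and 30.8 CPM per kb. Of the bithorax complex, Ubx had 107 and 29.9, abd-A 118 and 32.6 and Abd-B 112 and 30.4 CPM per kb. The 8 genes differed little among themselves in either library, and each was lower in replicate 2 than in replicate 1. With TMM scaling, described with the libraries, 7 of the 8 kept H3K27me3 alone and 1 was split. H3K4me3 at their outer starts was between 3.09 and 9.90 CPM in replicate 1 and between 15.9 and 28.1 CPM in replicate 2.

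The bithorax complex formed the longest run of neighbouring genes with H3K27me3 in both libraries. From Ubx to CG18622, 16 genes in order of their starts spanned chr3R:12482345-12813660 on build dm3, 331 kb, and included the non-coding genes bxd, iab-4 and msa. Densities within it ran from 88.4 to 146 CPM per kb in replicate 1 and from 26.5 to 41.9 CPM per kb in replicate 2. Values next to it were lower, without a clean edge. To the left the adjoining modSP had 22.96 and 13.01 CPM per kb, and the chaperonin gene Cctgamma, 4 genes out, had 7.29 and 7.06 CPM per kb of H3K27me3 with 305 and 232 CPM of H3K4me3. To the right the adjoining MESK4 had 39.7 and 20.9 CPM per kb and CG3678 17.8 and 13.7 CPM per kb, the latter with 103 and 72.5 CPM of H3K4me3, but CG31274, 3 genes out, was again at 39.7 and 19.6 CPM per kb. H3K4me3 within the run stayed at or under 6.60 CPM in replicate 1 and 26.1 CPM in replicate 2. Genes within the run overlap, so neighbours such as msa, iab-4 and CR43617 share reads.

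**Figure D3:**
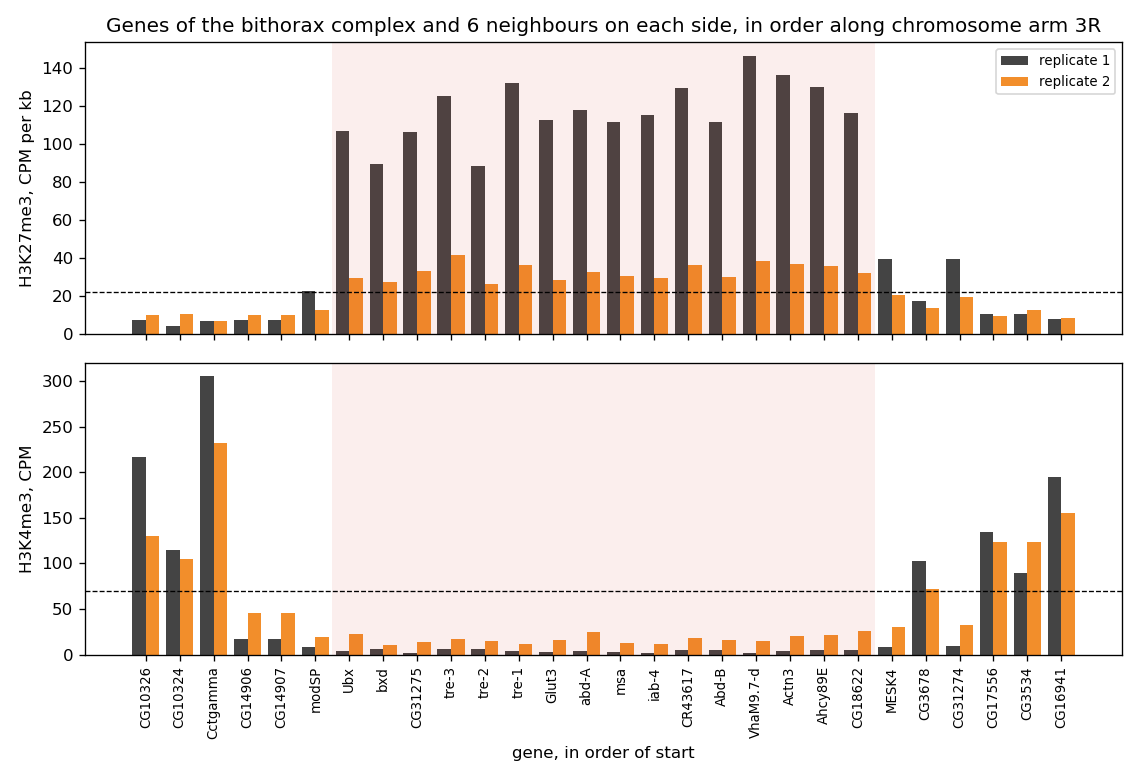
H3K27me3 (CPM per kb, upper panel) and H3K4me3 (CPM, lower panel) of the 16 genes of the bithorax run (shaded) and 6 neighbours on each side in order of gene start, with 1 bar per replicate and dashed lines at the levels. H3K27me3 of the run lies between 88.4 and 146 CPM per kb in replicate 1 and between 26.5 and 41.9 in replicate 2, and H3K4me3 is low throughout it.

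Such runs held most of the H3K27me3 genes outside the histone cluster. Of 291 genes past the level in both libraries there, 173 (59.5%) lay in 34 runs of at least 3 neighbours. In 20 of these 34 runs at least 1 gene was a Hox, temporal, neuronal subtype or patterning factor of the lists. The runs held 35 of the 58 such factors past the level in both libraries, near the 59.5% of all 291 genes. Runs of homologous neighbours included pb to CG42651 with zen, bcd and Dfd (10 genes), the Iroquois genes ara, caup and mirr (5 genes), the POU genes nub and pdm2 (4 genes), drm, sob and odd (4 genes) and gcm with gcm2 (6 genes). A run on 2L of 11 genes, CG34340 to CG16712, held several seminal fluid protein genes (Sfp24Ba, Sfp24Bb, Sfp24Bc and Acp24A4) and no listed factor. Within the 34 runs 2 genes carried H3K4me3, Ste12DOR and CG1103. With replicate 1 alone there were 112 runs, the longest of 21 genes. At the 68 places where a run of both libraries ended, 24 of the next genes were past the level in replicate 1, against 6.36% of all genes. H3K4me3 was carried by 25 of the 68, near the 31.9% of all genes.

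Transcription factors that specify neuronal subtypes carried H3K27me3 in replicate 1 almost throughout. Of 62, 58 were past the level in replicate 1, against 6.36% of all genes, and 24 in replicate 2, against 2.93%. By the rule that both libraries must be past it, 23 carried H3K27me3 alone and 35 were split. With TMM scaling those with H3K27me3 alone numbered 5. The list median was 67.6 and 20.9 CPM per kb, against 6.84 and 10.3 over all genes. The segment polarity gene gsb had 119 and 30.5 CPM per kb, the muscle segment homeobox gene Dr 113 and 30.4 CPM per kb and gsb-n, the neighbour and paralog of gsb, 99.7 and 28.96 CPM per kb. The motor neuron factor gene exex had 97.3 and 23.02, the retinal homeobox gene Rx 78.4 and 23.6 and the eye genes eya and so 83.3 and 23.9 and 82.6 and 23.5 CPM per kb. The LIM gene tup stood at 74.7 and 23.6 CPM per kb with 59.5 and 66.4 CPM of H3K4me3, just under that level in both libraries. Alone in the list with H3K4me3 and no H3K27me3 was the zinc finger gene sqz, at 143 and 146 CPM and 4.01 and 8.01 CPM per kb.

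Patterning factors of other germ layers and of appendages stood high as well, with a list median of 52.9 and 17.6 CPM per kb. Of 66, 48 were past the H3K27me3 level in replicate 1, against 6.36% of all genes, and 22 in both libraries, against 2.65%. H3K4me3 was carried by 2 (3.03%, against 31.9% of all genes). They were the wing co-factor gene sd at 76.02 and 109 CPM and the broadly used bHLH-PAS partner gene tgo at 283 and 187 CPM. With TMM scaling 10 of the 66 had H3K27me3 alone, against 22 by the library total. The muscle homeobox gene lbe had 116 and 30.1 CPM per kb, the heart gene tin 99.97 and 27.5 CPM per kb and the wing gene vg 95.7 and 28.1 CPM per kb. Over the Hox, temporal, subtype and patterning lists together, 121 of 150 genes (80.7%) were past the level in replicate 1, against 6.36% of all genes. Past it in both libraries were 58, against 2.65% of all genes, and 5 carried H3K4me3, against 31.9%. Genes that were not past it included the odd-skipped relative bowl, at 9.16 and 10.3 CPM per kb, the T-box gene org-1, at 6.99 and 6.97 CPM per kb, and the JAK/STAT ligand gene os, at 14.4 and 8.76 CPM per kb.

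The temporal factors, which neuroblasts express in sequence to vary their progeny, parted by factor. Of 21, 14 were past the H3K27me3 level in replicate 1, against 6.36% of all genes, and 6 in both libraries, against 2.65%. With TMM scaling 3 had H3K27me3 alone, against 6 by the library total. The early embryonic series hb, Kr, pdm2 and nub had 93.4 and 24.9, 112 and 29.9, 107 and 30.3 and 104 and 30.6 CPM per kb, whereas its last member cas had 6.25 and 8.01 CPM per kb. The optic lobe factors slp1, slp2, D, ey and tll had 71.3 and 20.2, 80.2 and 23.3, 63.3 and 19.9, 45.6 and 18.2 and 68.2 and 19.6 CPM per kb. The genes of the larval switch lay mostly low, with br at 3.53 and 6.84, Eip93F at 5.49 and 9.06, EcR at 5.66 and 10.3 and CG17838, known as Syp, at 4.50 and 9.45 CPM per kb. Their opponents, the RNA-binding protein genes Imp and lin-28, had 28.8 and 12.6 and 56.7 and 18.9 CPM per kb. Only chinmo carried H3K4me3 among these 21, at 109.7 and 147 CPM with 12.98 and 11.3 CPM per kb of H3K27me3.

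Genes of neuroblast identity fell into the classes much as all genes did, and most Notch targets of the Enhancer of split complex were past the H3K27me3 level in 1 library. Of 21 genes of neuroblast identity 12 carried neither mark (57.1%, against 56.6% of all genes), 6 carried H3K4me3 alone (28.6%, against 30.9%) and none carried H3K27me3 in both libraries. Those with H3K4me3 were polarity and growth regulators that other cells use too, brat at 294 and 257, dlg1 at 169 and 192, scrib at 106 and 179, aPKC at 88.3 and 106, par-6 at 106 and 107 and l(2)gl at 75.2 and 72.1 CPM. The Snail family gene esg had 54.8 and 19.5 CPM per kb of H3K27me3, and its relatives wor and sna 15.5 and 9.31 and 10.8 and 7.39 CPM per kb. The Enhancer of split complex holds direct Notch targets. Of its 12 genes, 10 (83.3%) were past the H3K27me3 level in replicate 1, against 6.36% of all genes. In replicate 2 none was, against 2.93%. The highest were HLHm5 at 59.4 and 15.5, m1 at 56.4 and 21.01 and m4 at 48.4 and 15.8 CPM per kb, and the lowest E(spl) at 11.2 and 8.49 and HLHmbeta at 16.96 and 11.1 CPM per kb. None of the 12 carried H3K4me3, the highest being HLHmbeta at 28.3 and 28.3 CPM.

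Cell cycle genes carried H3K4me3 about as often as all genes did. Of 39, 12 (30.8%) carried H3K4me3 alone, near the 30.9% of all genes, and none reached the H3K27me3 level in either library. The licensing genes dup and geminin had 229.7 and 161 and 155 and 105 CPM, and the anaphase activator gene rap, which acts as cells leave the cycle, 227 and 235 CPM. Among replication genes the origin and helicase genes Mcm5, Orc4 and Orc5 were split, at 54.4 and 73.4, 58.8 and 79.3 and 53.2 and 81.5 CPM. Below the level in both libraries were Mcm2 at 19.3 and 22.7, Mcm3 at 39.5 and 53.8, Mcm6 at 38.9 and 60.3, Mcm7 at 37.5 and 57.7 and mus209, which encodes PCNA, at 40.7 and 50.5 CPM. The list median was 53.2 and 66.9 CPM, against 8.52 and 25.7 CPM over all genes.

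Past the H3K27me3 level in replicate 1 were 5 of 22 and 4 of 20 genes of the glial and of the hemocyte and fat body lists, against 6.36% of all genes. Of 22 glial genes 16 carried neither mark (72.7%, against 56.6% of all genes). H3K27me3 alone was carried by 2 (9.09%, against 1.91%) and H3K4me3 alone by 1 (4.55%, against 30.9%). The glial fate genes gcm and gcm2, which are neighbours, had 113 and 29.6 and 90.8 and 24.9 CPM per kb, and the engulfment receptor gene drpr had 232 and 173 CPM of H3K4me3. Of 20 hemocyte and fat body genes 15 carried neither mark (75%, against 56.6% of all genes). The GATA factor gene srp and the Runx factor gene lz were past the H3K27me3 level in replicate 1 alone, at 68.4 and 21.9 and 51.5 and 16.8 CPM per kb, and the scavenger receptor gene crq carried H3K4me3, at 140.01 and 276 CPM.

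Genes of tissues far from the brain carried neither mark in most cases. This held for 175 of 181 chemosensory receptor genes, 68 of 70 cuticle protein genes of the Cpr family, 14 of 14 antimicrobial peptide genes, 22 of 25 muscle genes and 28 of 33 germline genes, against 56.6% of all genes. The receptor list had a median of 5.22 and 17.01 CPM of H3K4me3 and of 10.3 and 12.1 CPM per kb of H3K27me3, the latter slightly over the median of all genes in both libraries. Exceptions in the germline list were the sperm gene dj, with H3K27me3 alone at 71.9 and 24.8 CPM per kb, and the translational regulator gene pum and the germ-cell-less gene gcl, with H3K4me3 alone at 435 and 246 and 261 and 326 CPM. Of 26 phototransduction genes 18 (69.2%) carried neither mark. The arrestin gene Arr2 carried H3K27me3 alone, at 103 and 25.02 CPM per kb, and the phospholipase C gene norpA and the G protein gene Galpha49B H3K4me3 alone, at 126 and 138 and 376 and 270.2 CPM. The cuticle genes Cpr66D and Cpr100A were past the level in replicate 1 alone, at 72.96 and 21.9 and 66.6 and 20.8 CPM per kb. Among pro-death genes in and next to the H99 region skl had 64.7 and 22.9, grim 62.9 and 18.3, rpr 43.5 and 18.7 and W, known as hid, 12.8 and 11.6 CPM per kb, and the caspase gene Nc and its activator Ark carried H3K4me3 at 92.3 and 152 and 211 and 154 CPM.

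By rank, the 6 highest with H3K27me3 alone among genes with no overlapping window and a gene model of at least 1 kb were CG42262, CG33680, kl-2, CG30429, Actn3 and CG42651. CG33680 and CG30429 adjoin the gap gene Kr on 2R, with 149 and 44.1 and 143 and 37.2 CPM per kb. Actn3, beside Abd-B, had 136 and 36.95 CPM per kb, and CG42651, beside Dfd, 125 and 35.9 CPM per kb. The other two were higher in replicate 2. CG42262 on X had 45.9 and 139 CPM per kb, and kl-2, a dynein heavy chain gene of the Y chromosome, 42.9 and 89.1 CPM per kb. H3K4me3 at kl-2 rested on 8 and 3 reads.

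Both marks were found almost solely at the histone genes, the S-phase genes for the core and linker histones that lie as tandem repeats of near-identical copies. The cluster at chr2L:21417078-21541620 (dm3) holds 115 genes of the table, 111 histone genes and 4 copies of a small non-messenger RNA gene. Of these, 88 carried both marks. The other 27 were split, since they carried H3K4me3 and reached the H3K27me3 level in replicate 2 alone. The 111 histone genes had a median of 139 CPM of H3K4me3 in replicate 1 and 379 in replicate 2. Their median H3K27me3 was 25.3 CPM per kb in replicate 1 and 59.4 in replicate 2. Both medians were higher in replicate 2.

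By histone type, median H3K4me3 was 194 and 524 CPM for His4, 147 and 373 for His3, 138 and 452 for His2A, 124 and 368 for His1 and 79.96 and 362 for His2B. Median H3K27me3 in the same order was 25.3 and 57.5 CPM per kb, 28.3 and 60.9, 26.8 and 67.2, 24.7 and 58.3 and 21.04 and 53.9. All 23 His3 copies carried both marks, against 3 of 23 His2B copies. The highest copy by the smaller multiple of the levels was His4:CG31611, at 223 and 604 CPM and 36.1 and 69.6 CPM per kb, followed by 4 copies of His3 and by His1:CG31617, at 157 and 491 CPM and 31.3 and 72.2 CPM per kb. Copies are so alike that reads cannot be told apart between them, so these values are uncertain for any single copy, and how reads with several matches were counted is not given in the sources used here. The median gene model is 555 bases, so the windows of the marks are nearly the same stretch here. No input was subtracted, and the part of the copy number of the repeat in either mark was not tested.

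The 4 histone genes listed outside the cluster carried H3K4me3 alone. The replication-independent His3.3A and His3.3B had 243 and 125 and 288 and 183 CPM, His2Av 252 and 219 CPM and His4r 440.5 and 138 CPM. Their H3K27me3 was 8.55 and 9.97, 3.63 and 5.68, 4.87 and 8.61 and 11.8 and 9.81 CPM per kb in that order.

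Outside the histone cluster 4 genes carried both marks. The ciliary factor gene Rfx, at chr3R:6188233-6203790, had 74.5 and 83.95 CPM of H3K4me3 and 78.9 and 22.8 CPM per kb of H3K27me3, close to the H3K4me3 level in both libraries and to the H3K27me3 level in replicate 2. CG1103, beside the gap gene hkb, had 92.3 and 121 CPM and 58.1 and 22.6 CPM per kb. CG12717 had 239 and 224 CPM and 25.9 and 34.3 CPM per kb, and Ste12DOR 72.1 and 169 CPM and 151 and 163 CPM per kb. Ste12DOR belongs to the Stellate repeats on X, of which 13 genes in the table had median H3K27me3 of 73.3 and 63.5 CPM per kb and median H3K4me3 of 27.8 and 79.5 CPM. These copies too share reads.

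A further 19 genes carried H3K4me3 in both libraries and were past the H3K27me3 level in replicate 1 alone, all of them outside the histone cluster. The LIM homeobox gene ap, which specifies neuronal subtypes, had 94.6 and 80.99 CPM and 32.3 and 14.9 CPM per kb. The Wnt pathway scaffold gene Axn had 195 and 121 CPM and 36.7 and 14.6 CPM per kb, the mitochondrial ribosomal protein gene tko 166 and 196 CPM and 54.5 and 17.6 CPM per kb, and ssp3 139 and 207 CPM and 61.99 and 20.8 CPM per kb. Among genes split for H3K4me3, the eyeless paralog toy had 62.9 and 78.04 CPM and 74.6 and 31.6 CPM per kb and the homeodomain gene zfh2 64.1 and 106 CPM and 47.9 and 20.5 CPM per kb, both on chromosome 4. These values are of pooled neurons over 2 different windows, and whether both marks sit on the same cells or nucleosomes was not measured.

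The H3K27me3 libraries differed in scale and also in rank order, and outside the histone cluster most of their densest genes were shared. Across all 14284 genes log2(CPM per kb + 1) correlated at Pearson r = 0.732 and Spearman rho = 0.631, as a description across genes that share gene lengths and mappability. Without the histone cluster rho was 0.623. The SD of log2 density was 0.921 in replicate 1 and 0.530 in replicate 2. The median gene had 6.84 CPM per kb in replicate 1 and 10.3 in replicate 2, the gene at the 95th percentile 27.8 and 17.02, and the gene at the 99th 89.4 and 40.8. Against its own median, the 99th percentile thus stood 13.1 times higher in replicate 1 and 3.96 times in replicate 2. The 10% of genes with the highest density took 39.4% of the reads of replicate 1 and 19.9% of those of replicate 2. Replicate 2, with the smaller range, had the larger number of reads.

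**Figure D4:**
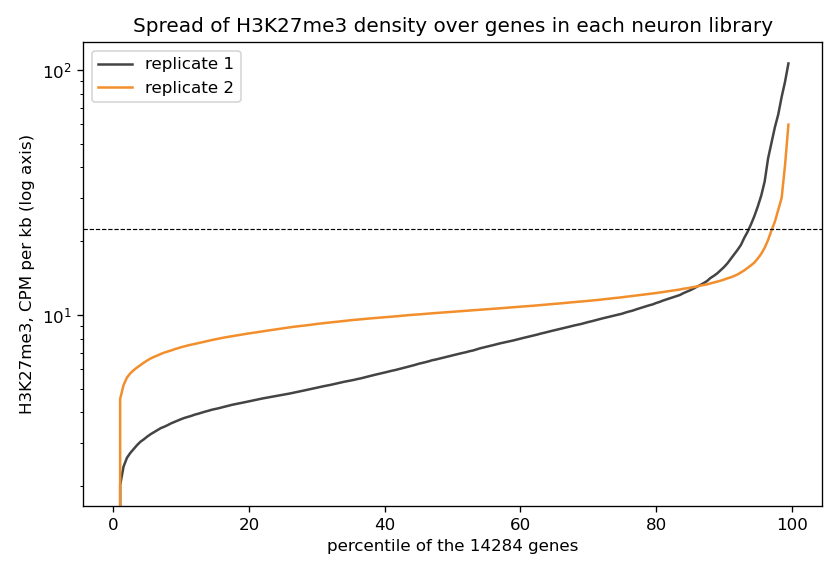
H3K27me3 density (CPM per kb, log axis) at each percentile of the genes in replicates 1 and 2, with the dashed line at the level. The curve of replicate 2 is flatter. The median gene lies at 6.84 CPM per kb in replicate 1 and 10.3 in replicate 2. At the 99th percentile the values are 89.4 in replicate 1 and 40.8 in replicate 2, and the curves cross between these points.

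A fixed level therefore counted different numbers of genes. Past it were 908 genes in replicate 1 and 419 in replicate 2, with 379 in both. The shared genes were 41.7% of the list of replicate 1 and 90.5% of that of replicate 2. Without the histone cluster they were 291 genes, 35.5% and 95.7%. The 529 genes past the level in replicate 1 alone had a median of 36.2 CPM per kb there and of 16.1 in replicate 2. Of them 405 (76.6%) were nevertheless in the top 10% of genes of replicate 2, and 526 were above its median. Their densities in replicate 2, with quartiles at 14.03 and 18.8 CPM per kb, lay over those of the 13238 measured genes past the level in neither, with quartiles at 8.72 and 11.4.

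Ranked lists of up to 500 genes overlapped more once the histone cluster was set aside, and lists of 1000 genes overlapped less. Of the 100 densest genes 2 were shared, since 81 of the 100 in replicate 2 and 0 of those in replicate 1 were histone cluster genes. With the cluster, 60 of the top 200, 354 of the top 500 and 732 of the top 1000 were shared. Without the cluster 67 of the top 100, 153 of the top 200, 415 of the top 500 and 678 of the top 1000 were shared. On the linear scale and without the cluster a straight line through all genes had a slope of 0.234 and an intercept of 8.36 CPM per kb (replicate 2 on replicate 1, r = 0.730). Within replicate 1's own list of 908 genes, rho was 0.510, and among the 13376 genes below the level it was 0.556.

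The same lists showed the difference in scale, each set against the median gene of its own library. Hox genes stood at 15.8 times that median in replicate 1 and 2.93 times in replicate 2. For neuronal subtype factors the multiples were 9.88 and 2.03, for temporal factors 8.28 and 1.86 and for the Enhancer of split complex 5.55 and 1.36. Polycomb and Trithorax group genes, mostly marked by H3K4me3, stood at 0.616 and 0.875. By rank the libraries were closer than by level: in the top 10% of genes were 58 of the 62 subtype factors in replicate 1 and 57 in replicate 2, and all 8 Hox genes in each. For the Enhancer of split complex they were 11 and 6 of 12.

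**Figure D5:**
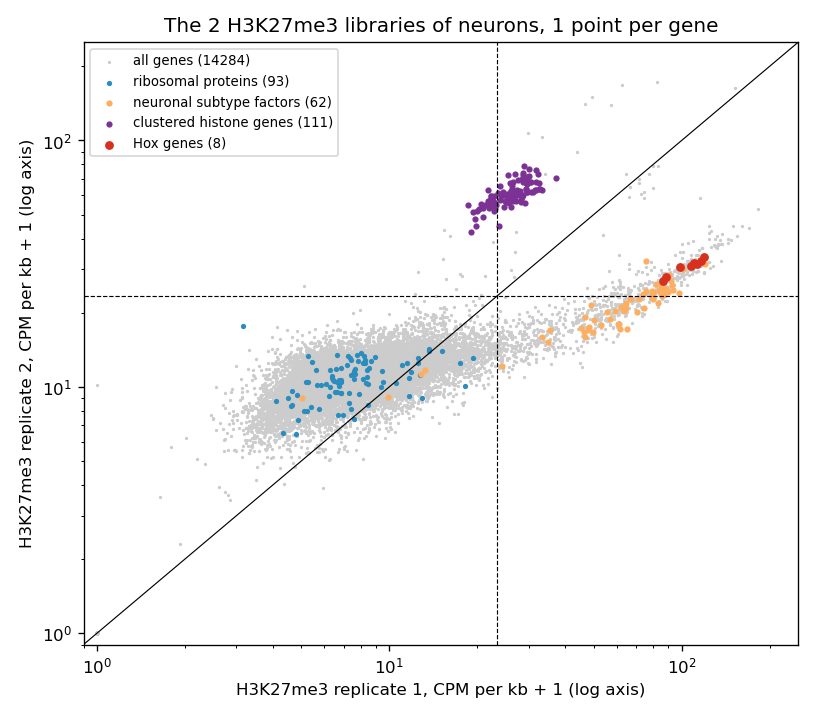
H3K27me3 density of each gene in replicate 1 and replicate 2 (CPM per kb + 1, log axes), with dashed lines at the level and a solid line of equality. Hox genes and neuronal subtype factors run along a branch below equality (Hox medians 108 and 30.2 CPM per kb), ribosomal protein genes lie mostly above it, and the clustered histone genes form a group of their own above it.

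Many single genes parted the libraries. With CPM of the library total, 2178 genes (15.2%) were over 2-fold higher in replicate 2 and 626 (4.38%) over 2-fold higher in replicate 1, on the log2(CPM per kb + 1) scale. The median log2 ratio of replicate 2 over replicate 1 was 0.48. Scaling by the trimmed mean of M values (TMM) shifted it to 0.02, and the calls then numbered 166 higher in replicate 2 and 1076 higher in replicate 1. The shift between scalings is smaller than any ratio given next. Largest toward replicate 1, among genes with at least 100 reads in each and no overlapping window, were CG13891 (log2 ratio -2.08), CG31517 (-2.05), the forkhead gene fd96Cb (-2.04), CG9235 (-2.04), exex (-2.03) and the forkhead gene croc (-1.996). CG13891, next to the tracheal factor gene trh, had 135 and 31.3 CPM per kb, CG31517 127 and 29.9, fd96Cb 124 and 29.4, CG9235 118 and 27.97 and croc 87.9 and 21.3, and CG31517 lies in the run that holds the head gene ems, CG9235 beside Rx. All 6 carry H3K27me3 in replicate 1, and croc alone of them missed the level in replicate 2.

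Largest toward replicate 2 were Pkcdelta (log2 ratio 1.63), Rab30 (1.63), CG42262 (1.58), Klp31E (1.57), CG4908 (1.56) and the histone copy His2B:CG33892 (1.55). Pkcdelta on X had 32.3 and 102 CPM per kb over a gene model of 21425 bases. The small GTPase gene Rab30 and the kinesin gene Klp31E carried H3K4me3 and had low H3K27me3 in both, at 3.09 and 11.7 and 3.54 and 12.5 CPM per kb. Of the 40 genes past the level in replicate 2 alone, 13 lay outside the histone cluster. Of these, alpha-Man-I, CG32700 and CG32698 are on X, at 14.4 and 42.5, 15.1 and 39.8 and 14.3 and 32.1 CPM per kb, and alpha-Man-I also carried H3K4me3, at 174 and 183 CPM. AGO3, a gene of the germline piRNA pathway on 3L, had 21.6 and 37.6 CPM per kb, and CG42621 and RYamide, on heterochromatic scaffolds, 15.9 and 24.01 and 16.4 and 27.6 CPM per kb.

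Agreement varied by gene length and chromosome. Pearson r of the H3K27me3 libraries was 0.800 for gene models over 20 kb, 0.792 for 5 to 20 kb, 0.728 for 2 to 5 kb, 0.710 for 1 to 2 kb and 0.748 under 1 kb. By arm it was 0.811 on 3R, which holds both Hox complexes, 0.737 on X, 0.697 on 3L, 0.686 on 2L and 0.671 on 2R, and 0.894 over the 85 genes of chromosome 4. Genes of X had lower H3K27me3 read density than those of the large autosomal arms in both libraries, with medians of 4.90 and 7.64 CPM per kb against 6.79 and 10.5 on 3L and 7.79 and 10.8 on 2L. No input was subtracted and sex is not given, and the part of X copy number in this difference was not tested. The share of genes past the level in replicate 1 was 9.94% on 2L, 8.05% on 3R, 4.69% on 3L, 4.55% on X and 3.94% on 2R. All values of 2L include the 115 genes of the histone cluster, of which 88 were past the level in replicate 1.

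The H3K4me3 libraries agreed more closely, at Pearson r = 0.937 and rho = 0.906 across the same genes on log2(CPM + 1). Here too replicate 2 had the higher floor, with a median gene at 8.52 CPM in replicate 1 and 25.7 in replicate 2, and similar 75th percentiles of 116 and 111 CPM. The level sorted 4551 genes as past it in both, 304 in replicate 1 alone and 558 in replicate 2 alone. Chromosome 4 stood apart: of its 85 genes 27 were past the level in replicate 1 alone and 3 in replicate 2 alone, and the median log2 ratio of replicate 2 over replicate 1 was -0.71 there, against 1.05 on 3R. The Polycomb recruiter gene pho had 476 and 23.3 CPM and the synaptic priming gene unc-13 438 and 29.6 CPM, both on chromosome 4. Of the 76 genes on heterochromatic scaffolds 7 were past the level in replicate 1 alone and 1 in replicate 2 alone, so a few genes there too rest on 1 H3K4me3 library. On 3L the synaptic SNARE gene Snap25 was split in the same direction, at 178 and 31.6 CPM.

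H3K4me3 ran against H3K27me3 across genes, and more so in H3K27me3 replicate 1, the library with the wider range. Spearman's rho of H3K4me3 replicate 1 with H3K27me3 replicate 1 was -0.461, and of H3K4me3 replicate 2 with H3K27me3 replicate 1 -0.428. With H3K27me3 replicate 2 it was -0.102 and -0.0608. Pearson r of H3K4me3 replicate 2 with H3K27me3 replicate 2 was 0.131, and 0.0601 without the histone cluster. In group terms, of 4551 genes that carry H3K4me3 111 (2.44%) were past the H3K27me3 level in replicate 1, 23 of them outside the histone cluster. Of 8871 genes that lack H3K4me3 775 (8.74%) were. Median H3K27me3 of these groups was 5.02 and 8.71 CPM per kb in replicate 1, and 9.78 and 10.7 in replicate 2. The medians thus lay further apart in replicate 1 than in replicate 2. These correlations describe genes measured in shared libraries and were not tested.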

How the data were processed

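Per the labels, neurons were isolated by a published protocol for larval brains, chromatin was treated with micrococcal nuclease, and H3K4me3 or H3K27me3 was immunoprecipitated. The submitters' processing notes name the fly build dm3, bedtools 2.25.0, the aligner Bowtie2 2.2.4 and deepTools 2.5.0.1, with no order or role. The deposited tables hold whole-number read counts per gene, with no input subtracted, 1 library a table. Input libraries were not analysed here. How reads with several matches and duplicate reads were treated is not given in the sources used here. From the coordinates, H3K4me3 windows overlap another gene's at 772 genes and H3K27me3 windows at 5382.

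Counts were divided by the library total, and for H3K27me3 also by the gene model length (end minus start plus 1), with Python 3.11.15 and pandas 2.3.3. Logarithms used a pseudocount of 1. Library ratios were called past a log2 ratio of 1 in size. TMM scaling used edgeR 4.0.16. No group was compared with another, so no test was run and no p-value is given. The calculations were tested on simulated counts in which marked genes, all of at least 1 kb, had the same step in every library. Unequal steps, as between the H3K27me3 libraries, and marks on shorter genes were not simulated. Reads carry no stated molecular identifiers, so counting error is a lower limit of the error. Members and all 26 gene lists were chosen with earlier results of these data known, and 1009 of 1015 list entries matched a gene. Named genes were the 6 highest per class, the 6 largest library ratios in each direction, those nearest the levels, the markers and the highest members of each list, and other genes named were chosen after their values were seen. The alternatives changed the levels, scaling, length unit, filter, pseudocount, overlapping, short or chromosome 4 genes, and libraries. Promoter motifs were not analysed here.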

Additional observations from a re-analysis of the deposited data

How the results depend on the processing

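Of 150 recomputed values, 120 stayed within 1.5 times the count, share or SD ratio or within 0.1 of the correlation or log2 value, and 30 moved. Only the correlations and the median log2 ratio could turn direction, and 0 of them did. Counts and shares have no direction to turn. The balance of the library-ratio calls, not among the 150, did turn. It went from 2178 higher in replicate 2 and 626 higher in replicate 1 to 166 and 1076 with TMM. The count of genes with H3K27me3 alone was 515 at 1.5 times the even density, 38 at 3 times, 780 with the top 10% of genes in each library, 631 from the mean of the libraries, 834 per gene model without length, 166 with TMM and 172 without gene models under 1 kb. Genes with both marks numbered 6 at 3 times the even density, 146 with the top 10%, 141 from the mean, 204 per gene model, 53 at 2 times the H3K4me3 level, 3 without gene models under 1 kb and 4 without the histone cluster. At 2 times the H3K4me3 level 2018 genes had H3K4me3 alone. Without overlapping windows 2584 genes had H3K4me3 alone, 5060 neither and 922 a split mark, since fewer genes were counted. The mean leaves 0 split genes by construction, and a level at 2 times each library's median density left 2169. The share of genes past the H3K27me3 level in both libraries among those past it in either was 7.71% at 3 times the even density and 26.4% at 2 times the median density. The median log2 ratio of the H3K27me3 libraries was 0.0185 with TMM, a shift of -0.46, and 0.33 with a pseudocount of 5. With 1 library left out in turn, genes with H3K27me3 alone ranged from 273 to 775, with both from 92 to 120, with H3K4me3 alone from 4431 to 4950, with neither from 8096 to 8622 and with a split mark from 569 to 862. Spearman's rho of the marks (library means) was -0.359 and ranged from -0.445 to -0.0711, the value nearest 0 being that without H3K27me3 replicate 1. The settings without the histone cluster, without genes with no read and at 2 times the median density were chosen after seeing the data, and where no construction is named the cause was not tested. No paired analysis was possible because the results come from no test and the marks are different measurements.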
